A study of Mus musculus with 10 samples.

Results

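The genes of synaptic vesicles and of the machinery that releases them were followed in retinal cells sorted 3 days after optic nerve crush (ONC), with and without Cre delivery to floxed *Arid1a*. The group is a list of 36 named genes, taken by symbol from a table of 53974 genes, and it also takes in every open chromatin region within 1000 bp of an end of these genes. All 36 genes were in the table, and all 36 were among the 17555 genes kept for testing because they reached 1 TPM (a measure of RNA level that accounts for transcript length and library size) in at least 3 of 6 RNA-seq libraries. Of 16600 ATAC-seq regions (stretches of chromatin open to a transposase), 18 lay at an end of 17 of these genes.

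All mice carried floxed *Arid1a* alleles (*Arid1a* fl/fl) on a C57BL/6 background and were 8 to 10 weeks old. AAV2 viruses, which infect retinal neurons from the vitreous, were injected 2 weeks before ONC, with GFP for the libraries labelled WT and with Cre for those labelled cKO (genotype given as *Arid1a* del/del). The study gives a higher titer for the GFP virus than for the Cre virus, so the labels differ in titer as well. Both viruses used the CMV promoter, which is not particular to one cell type, and each sample pooled 4 to 5 retinas whose live cells were sorted with an antibody to Thy1.2, a surface protein of retinal ganglion cells (RGCs) and of T cells. RNA-seq covered 3 WT and 3 cKO libraries and ATAC-seq covered 2 of each, and p-values measure the spread between these pools. TPM values keep no sequencing depth, so no counting error can be given. *Arid1a*, the targeted gene, held 18.8, 11.7 and 14.1 TPM in WT and 18.8, 27.9 and 25.001 TPM in cKO (log2 fold change 0.66, adjusted p = 0.274 by limma). Its RNA level was thus not lower under the cKO label, and directions here are those of the labels. By immunostaining, the study reported less ARID1A protein in RGCs after AAV2 with Cre.

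Nerve terminals store transmitter in vesicles. A vesicle docks at the active zone, is primed there, and fuses when calcium binds its sensor, as SNARE proteins of vesicle and plasma membrane zip together. The complex is then taken apart by an ATPase and the vesicle membrane is recovered by endocytosis. In the retina, photoreceptors and bipolar cells release glutamate continuously at ribbon synapses, which use syntaxin 3 and their own complexins, whereas amacrine cells use conventional synapses and RGCs send their terminals out of the eye.

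RefSeq promoter windows on GRCm38.p6, from 250 bases before a transcript start to 50 after it, were found for 29 of the 36 genes, in 39 windows; *Cplx4*, *Doc2b*, *Rims2*, *Snap25*, *Syn3*, *Syt4* and *Vamp2* had none and were not searched. Their median GC content was 62.0%, against 52.7% over 32851 windows of all genes, and their median ratio of observed to expected CpG was 0.70, against 0.38. Single windows ran from 35.3% GC (*Sv2b*) to 74.3% (*Syt2*). A GC box (GGGCGG, read on both strands) was in 22 of the 39 windows, or 56.4%, against 35.7% of all windows. A TATA box (TATAAA) was in 7.69% of the member windows and in 13.6% of all windows, and the 2 of the 29 genes with one were *Sv2b* and *Stx3*. These are letter matches in short windows and not binding sites.

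The next 5 promoters are shown for their chromatin regions, described further on. These regions include the widest difference between the labels, at *Napa*, and the narrowest, at *Cplx3*. GC boxes on either strand are in capitals. *Napa* holds 2, *Pclo* 4, *Rab3a* 2, *Syt1* 1 and *Cplx3* none. Other windows over a region held none at *Napb* (log2 difference -2.80), *Syn1* (-2.66), *Amph* (-1.80) and a further *Rab3a* window (-2.95). They held 1 at *Vamp1* (-2.62), 4 at *Unc13b* (-1.67) and 3 each at *Rims1* (-1.21) and *Syn2* (-0.69). The windows of *Synj1* (-3.99) held 7 and 0. A link between GC boxes and these differences was not tested. The windows are chr7:16098330-16098629 on the plus strand for *Napa*, chr5:14514668-14514967 on the plus strand for *Pclo*, chr8:70754453-70754752 on the plus strand for *Rab3a*, chr10:109010926-109011225 on the minus strand for *Syt1* and chr9:57606232-57606531 on the minus strand for *Cplx3*.
Napa: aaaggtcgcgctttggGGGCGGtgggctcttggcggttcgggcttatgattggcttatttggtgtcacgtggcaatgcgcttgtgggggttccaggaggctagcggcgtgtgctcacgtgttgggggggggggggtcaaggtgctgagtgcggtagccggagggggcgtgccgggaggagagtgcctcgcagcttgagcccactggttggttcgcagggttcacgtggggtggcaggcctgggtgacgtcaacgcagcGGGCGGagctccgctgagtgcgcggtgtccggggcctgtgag
Pclo: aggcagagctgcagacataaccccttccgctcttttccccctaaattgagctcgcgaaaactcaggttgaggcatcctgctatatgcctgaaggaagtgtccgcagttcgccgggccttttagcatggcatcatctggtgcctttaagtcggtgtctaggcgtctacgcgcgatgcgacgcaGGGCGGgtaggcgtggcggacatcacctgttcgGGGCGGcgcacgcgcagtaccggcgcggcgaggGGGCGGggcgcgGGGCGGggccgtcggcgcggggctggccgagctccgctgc
Rab3a: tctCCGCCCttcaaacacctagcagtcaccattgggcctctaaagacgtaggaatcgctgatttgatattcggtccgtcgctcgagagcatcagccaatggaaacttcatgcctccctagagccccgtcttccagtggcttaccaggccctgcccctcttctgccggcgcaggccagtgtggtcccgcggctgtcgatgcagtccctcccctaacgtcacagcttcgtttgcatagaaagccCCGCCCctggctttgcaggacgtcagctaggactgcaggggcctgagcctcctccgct
Syt1: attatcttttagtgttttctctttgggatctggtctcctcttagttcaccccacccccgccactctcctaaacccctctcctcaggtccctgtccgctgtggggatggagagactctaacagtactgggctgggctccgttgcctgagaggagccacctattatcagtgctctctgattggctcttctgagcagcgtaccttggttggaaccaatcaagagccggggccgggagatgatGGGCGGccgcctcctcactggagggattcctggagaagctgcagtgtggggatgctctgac
Cplx3: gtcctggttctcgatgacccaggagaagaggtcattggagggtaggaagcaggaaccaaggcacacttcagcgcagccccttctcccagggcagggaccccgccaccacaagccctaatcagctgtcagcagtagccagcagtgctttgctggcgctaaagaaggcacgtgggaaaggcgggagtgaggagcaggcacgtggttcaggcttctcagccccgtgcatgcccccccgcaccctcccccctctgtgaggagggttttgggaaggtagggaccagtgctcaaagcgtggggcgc

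A second pair is shown for a match to the left part of the RE1 element (TTCAGCACC, on either strand, in capitals), the sequence read by the repressor REST, which holds neuronal genes silent outside neurons. Of the 29 genes searched, *Syn1* and *Unc13a* held it, in 5.13% of the member windows against 0.371% of all windows. The windows are chrX:20920869-20921168 for *Syn1* and chr8:71671708-71672007 for *Unc13a*, both on the minus strand of GRCm38.p6. The *Syn1* window also holds the full cAMP response element (TGACGTCA), which of the 29 genes searched *Napa* also held, for 5.13% of member windows against 1.79% of all windows.
Syn1: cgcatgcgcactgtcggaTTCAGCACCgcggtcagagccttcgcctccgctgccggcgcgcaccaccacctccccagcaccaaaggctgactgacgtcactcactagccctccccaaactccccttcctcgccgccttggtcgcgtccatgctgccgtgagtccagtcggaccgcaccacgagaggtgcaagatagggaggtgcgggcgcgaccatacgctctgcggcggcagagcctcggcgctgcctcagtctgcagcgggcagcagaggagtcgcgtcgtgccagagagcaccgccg
Unc13a: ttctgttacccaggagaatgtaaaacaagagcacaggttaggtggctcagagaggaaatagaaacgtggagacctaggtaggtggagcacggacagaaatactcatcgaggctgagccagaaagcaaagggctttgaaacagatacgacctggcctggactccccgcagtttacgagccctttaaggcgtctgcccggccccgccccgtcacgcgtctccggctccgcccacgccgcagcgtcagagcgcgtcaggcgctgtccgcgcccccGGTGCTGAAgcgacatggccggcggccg

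RNA of most vesicle and release genes was higher in the libraries labelled cKO, but no single member passed the test over all genes. The log2 fold change (cKO minus WT, on the log2(TPM + 1) scale) had a median of 0.94 over the 36 genes, against 0.16 over all genes tested, and it was above 0 for 33 of the 36, against 61.1% of all genes. Of the 36 members, 34 held at least 1 TPM in all WT libraries, and the other two, *Syt2* and *Sv2c*, were kept mainly through their cKO values. By limma with Benjamini-Hochberg adjustment over all genes, 0 of the 36 passed an adjusted p of 0.05 (the lowest adjusted p was 0.124), and of all genes only 1, or 0.0057%, was called higher and none lower. With another test, DESeq2, the study reported far more genes past that threshold, in both directions. It listed the synaptic vesicle cycle among pathways of the upregulated genes. At an unadjusted p of 0.05 by limma, 22 of the 36 were higher, against 11.9% of all genes, and 0 were lower, against 6.45%. *Syt2* and *Sv2c* are among these 22 and among the 33 above 0. A filter on a mean TPM of 5 drops both and other scarce members and keeps 30. Of these 30, 19 were higher at an unadjusted p of 0.05. The share of all genes under this filter is not given here. In 22 of the 36, *Sv2c* among them, every cKO library lay above every WT library, against 18.7% of all genes. In 0 did every cKO library lie below, against 7.18%.

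Scaling the libraries by the median of ratios brought the median of all genes to 0.01 and that of the members to 0.77. Under that scaling 32 of the 36 lay above 0, against 50.8% of all genes, and 19 were higher at an unadjusted p of 0.05, against 7.57%. The count of 22 was 14, 15 and 21 without cKO replicates 1, 2 and 3, where 6.72%, 5.76% and 13.4% of all genes were higher, and 20, 24 and 15 without WT replicates 1, 2 and 3, against 10.1%, 11.9% and 9.51%. The library cKO replicate 1 held the highest value of 22 of the 36 members, and the members' summed TPM was 14320 there, against 12568 and 9369 in cKO replicates 2 and 3. The WT libraries summed to 5870, 7367 and 5339, so the sums did not overlap between the labels.

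**Figure D1:**
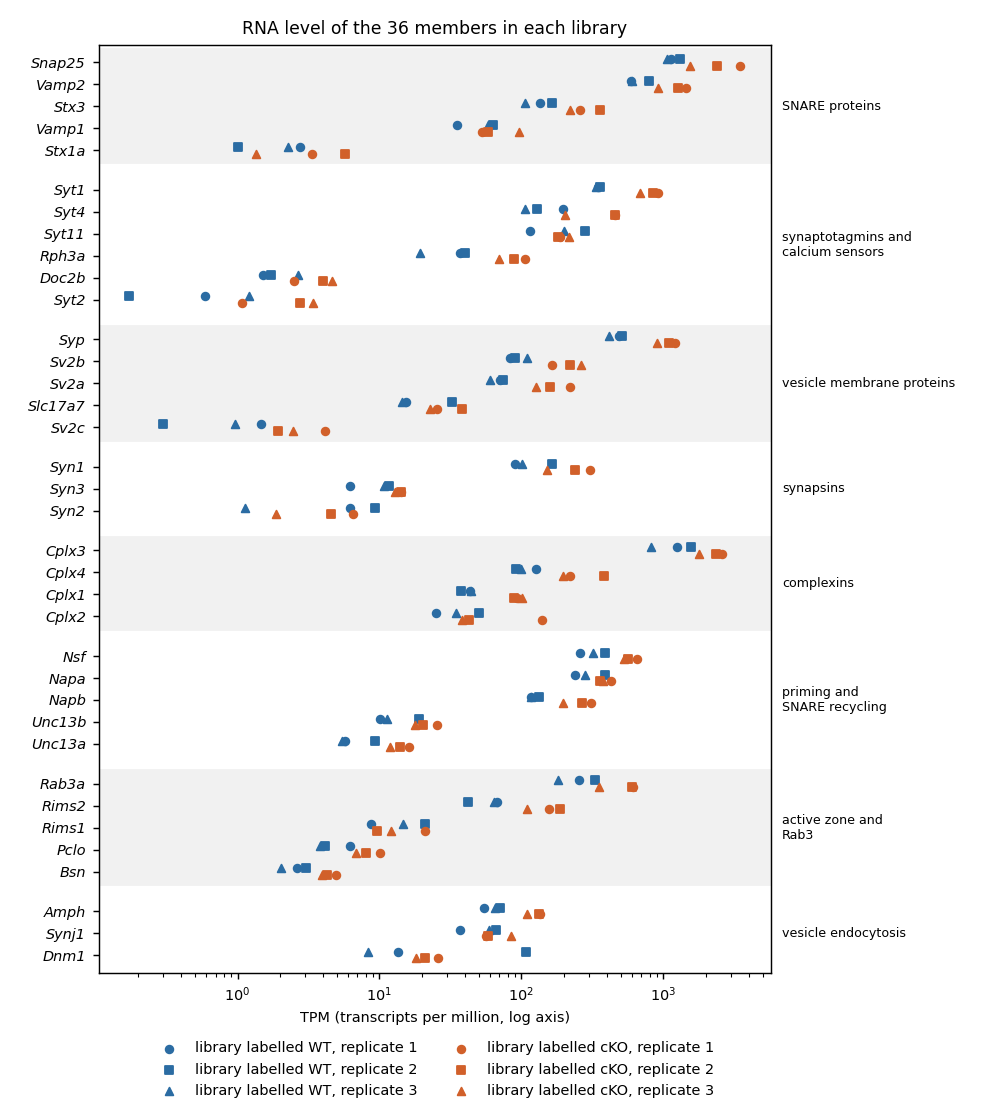
TPM of each of the 36 genes in each of the 6 RNA-seq libraries (log axis), grouped by role. Points stand for single libraries, blue for those labelled WT and orange for those labelled cKO, and in 22 genes all orange points lie to the right of all blue points.

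**Figure D2:**
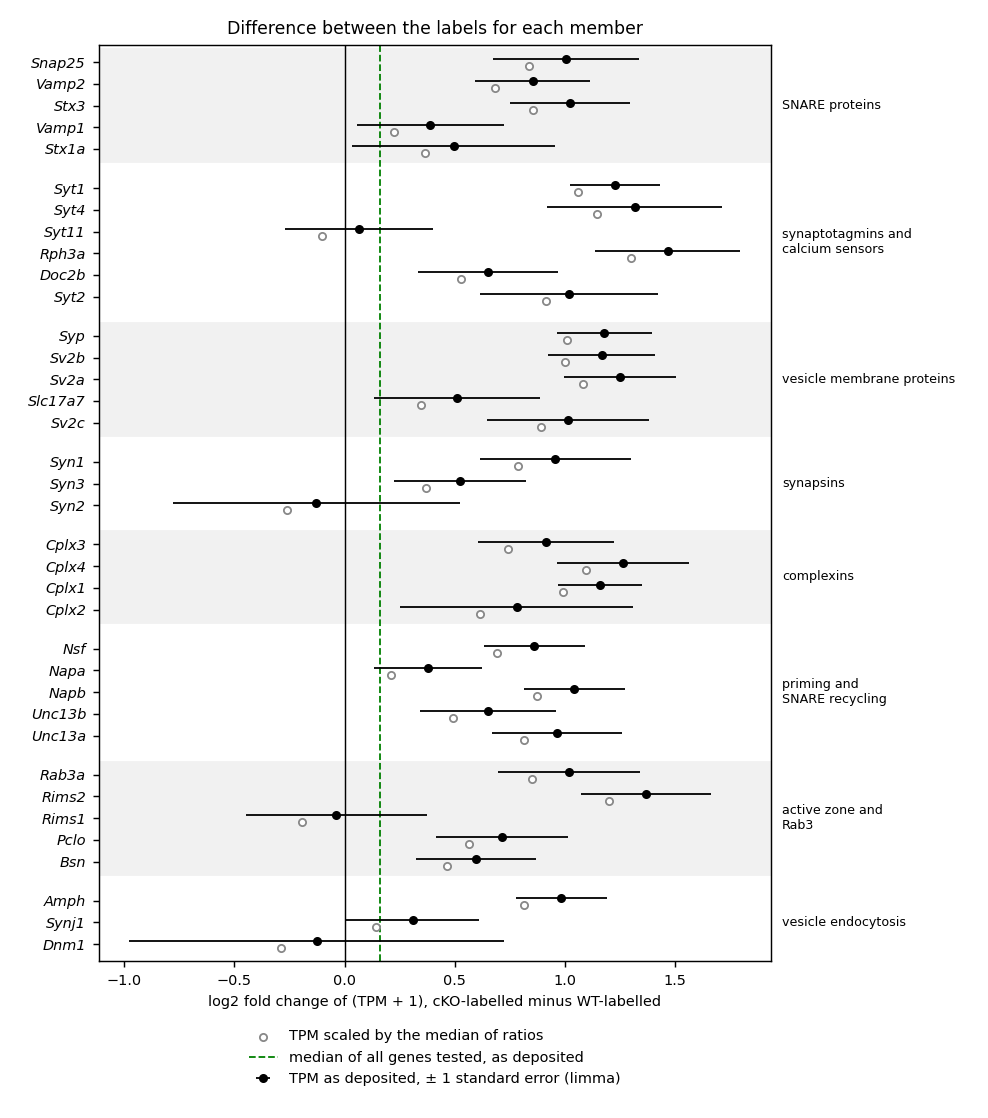
Log2 fold change of (TPM + 1), cKO minus WT, for each gene with its standard error (bars, n = 3 libraries per label), and the same after scaling by the median of ratios (open circles). Filled points lie to the right of 0 for 33 of the 36 genes, and the green line marks the median of all genes, 0.16.

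Among SNARE proteins, the fusion motors, all 5 fold changes were above 0, against 61.1% of all genes. In 3 of them every cKO library lay above the WT libraries, against 18.7% of all genes. *Snap25*, the plasma membrane SNARE and on average the most abundant member, held 1127, 1316 and 1068 TPM in WT and 3472, 2406 and 1539 TPM in cKO (log2 fold change 1.01, SE 0.33, adjusted p = 0.187 by limma). Every cKO value was above the WT values, but cKO replicate 3 was close to WT replicate 2. *Vamp2*, the main vesicle SNARE, held 593, 798 and 601 TPM in WT and 1441, 1278 and 914 TPM in cKO, a log2 fold change of 0.85 (SE 0.26). Its relative *Vamp1* overlapped between the labels, at 35.1 to 63.1 TPM in WT and 52.5 to 96.7 TPM in cKO.

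*Stx3*, the syntaxin of ribbon synapses, stood far above *Stx1a*, the syntaxin of conventional synapses. It held 136, 165 and 106 TPM in WT and 257, 359 and 219 TPM in cKO, with a log2 fold change of 1.02 (SE 0.27, adjusted p = 0.147 by limma). *Stx1a* lay between 1.01 and 5.70 TPM in all 6 libraries and overlapped between the labels. Within each library the TPM of *Stx3* was 46.9 to 163 times that of *Stx1a*.

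Of the 6 synaptotagmins and other calcium sensors, 4 were higher at an unadjusted p of 0.05, against 11.9% of all genes. *Syt2* is among the 4, though it was kept for testing mainly through its cKO values. Its unadjusted p by limma was 0.039, and 0.057 after scaling by the median of ratios. *Syt1*, the sensor of fast release, had the narrowest WT spread of the 36 relative to its mean: 346, 357 and 334 TPM, against 923, 839 and 687 TPM in cKO. Its lowest cKO library was well clear of its highest WT library, and the log2 fold change was 1.23 (SE 0.20, unadjusted p = 0.00051, adjusted p = 0.124 by limma). *Syt4*, a synaptotagmin that binds calcium poorly, held 197, 129 and 106 TPM in WT and 459, 459 and 201 TPM in cKO (log2 fold change 1.32, SE 0.40). In cKO replicate 3 it was within a few TPM of WT replicate 1. *Rph3a* encodes rabphilin, which binds Rab3 on vesicles, and it held 37.2, 40.03 and 19.4 TPM in WT and 105, 89.1 and 69.6 TPM in cKO (log2 fold change 1.47, SE 0.33, adjusted p = 0.124 by limma).

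The remaining sensors were either flat or scarce. *Syt11*, which does not bind calcium, held 116 to 282 TPM in WT and 182 to 218 TPM in cKO, so the cKO range lay inside the WT range (log2 fold change 0.07, SE 0.33; -0.10 after scaling by the median of ratios). *Syt2*, the fast sensor of brainstem and spinal synapses, stayed at 3.42 TPM or less in every library and overlapped between the labels. *Doc2b*, a high-affinity sensor of spontaneous release, lay at 1.52 to 2.69 TPM in WT and 2.49 to 4.62 TPM in cKO.

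Of the 5 proteins of the vesicle membrane, 4 had every cKO library above the WT libraries, against 18.7% of all genes. *Syp*, encoding synaptophysin, held 484, 508 and 413 TPM in WT and 1199, 1099 and 898 TPM in cKO (log2 fold change 1.18, SE 0.22, adjusted p = 0.124 by limma). *Sv2a*, the vesicle glycoprotein bound by levetiracetam, held 70.4, 74.1 and 60.4 TPM in WT and 219, 158 and 126 TPM in cKO, and its relative *Sv2b* held 82.9, 90.7 and 109 TPM in WT and 165, 220 and 262 TPM in cKO. *Sv2a* was highest in cKO replicate 1 and *Sv2b* in cKO replicate 3, so the 2 relatives ranked the cKO libraries in opposite order. *Sv2c* was scarce, at 0.297 to 1.47 TPM in WT and 1.93 to 4.12 TPM in cKO. It is among the 4, though it was kept for testing mainly through its cKO values.

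*Slc17a7*, the vesicular glutamate transporter VGLUT1 of photoreceptors and bipolar cells, overlapped between the labels at 14.3 to 32.6 TPM in WT and 22.6 to 38.1 TPM in cKO. *Slc17a6*, the VGLUT2 gene of RGCs and no member, taken here for its ratio to *Slc17a7*, lay at 0.593 to 1.57 TPM over the 6 libraries and was too low to be tested. Within a library the TPM of *Slc17a7* was 9.79 to 44.2 times that of *Slc17a6*.

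The 3 synapsins, which tether vesicles in reserve, did not share a pattern. *Syn1* held 90.8, 164 and 101 TPM in WT and 305, 240 and 152 TPM in cKO (log2 fold change 0.96, SE 0.34), with cKO replicate 3 below WT replicate 2. *Syn3* was between 6.18 and 14.2 TPM, with every cKO library above the WT libraries by a narrow margin. *Syn2* lay at 1.12 to 9.23 TPM in WT and 1.86 to 6.51 TPM in cKO, with a log2 fold change of -0.13 (SE 0.65).

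Complexins, which hold partly zipped SNARE complexes ready for calcium, were led by the pair of ribbon synapses. *Cplx3* held 1256, 1559 and 816 TPM in WT and 2576, 2354 and 1770 TPM in cKO (log2 fold change 0.92, SE 0.31, adjusted p = 0.195 by limma), and was second only to *Snap25* in mean TPM. *Cplx4*, the other ribbon complexin, held 126, 92.0 and 100 TPM in WT and 219, 381 and 197 TPM in cKO (log2 fold change 1.27, SE 0.30). *Cplx1*, of conventional synapses, held 43.3, 37.7 and 43.9 TPM in WT and 92.9, 89.0 and 101 TPM in cKO, the closest replicates of any complexin (log2 fold change 1.16, SE 0.19, unadjusted p = 0.00050, adjusted p = 0.124 by limma). *Cplx2* was set by 1 library: 24.9 to 50.1 TPM in WT and 141, 42.4 and 38.2 TPM in cKO, the last 2 within the WT range. Within each library the TPM of *Cplx3* was 17.5 to 41.3 times that of *Cplx1*.

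Priming and SNARE recycling genes had fold changes above 0 in all 5 cases, against 61.1% of all genes. *Nsf*, the ATPase that takes SNARE complexes apart, held 258, 388 and 321 TPM in WT and 651, 562 and 529 TPM in cKO (log2 fold change 0.86, SE 0.23). Its adaptors differed: *Napb*, the neuronal beta-SNAP, held 118, 134 and 117 TPM in WT and 309, 268 and 197 TPM in cKO (log2 fold change 1.04, SE 0.23), whereas *Napa*, the alpha-SNAP of all cells, held 237, 391 and 282 TPM in WT and 431, 357 and 375 TPM in cKO (log2 fold change 0.38, SE 0.24), with overlap. *Unc13a*, encoding the priming factor Munc13-1, held 5.68, 9.24 and 5.41 TPM in WT and 16.1, 13.8 and 11.8 TPM in cKO. *Unc13b*, encoding Munc13-2, overlapped at 10.0 to 19.0 TPM in WT and 17.8 to 25.4 TPM in cKO.

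At the active zone, the release site, *Rims2* was free of overlap between the labels, while the values of *Rims1* overlapped. Both encode RIM scaffolds that join Rab3 vesicles to calcium channels. *Rims2* held 66.9, 41.8 and 64.0 TPM in WT and 156, 188 and 109 TPM in cKO (log2 fold change 1.37, SE 0.29, adjusted p = 0.124 by limma). *Rims1* held 8.70, 20.8 and 14.6 TPM in WT and 20.9, 9.62 and 12.2 TPM in cKO (log2 fold change -0.04, SE 0.41). *Rab3a*, the vesicle GTPase, held 254, 332 and 182 TPM in WT and 609, 600 and 354 TPM in cKO, a log2 fold change of 1.02 (SE 0.32), with cKO replicate 3 just above WT replicate 2. The giant scaffolds *Bsn* (bassoon) and *Pclo* (piccolo) were low, at 2.02 to 4.98 TPM and 3.84 to 10.1 TPM over all libraries, and in both every cKO library was above the WT libraries.

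Of the endocytosis genes only *Amph*, encoding amphiphysin, separated the labels, at 54.1, 70.3 and 64.9 TPM in WT and 135, 132 and 110 TPM in cKO (log2 fold change 0.98, SE 0.21, adjusted p = 0.124 by limma). *Synj1*, the phosphatase that uncoats vesicles, overlapped at 36.6 to 66.0 TPM in WT and 56.4 to 84.9 TPM in cKO. *Dnm1*, the neuronal dynamin, held 13.5, 107 and 8.27 TPM in WT and 25.7, 21.1 and 17.9 TPM in cKO, with WT replicate 2 far above the other 5 libraries. Its log2 fold change was -0.13 (SE 0.85) over all libraries and 0.95 without WT replicate 2, which reversed the sign.

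Ratios between related genes, taken within a library, depend little on how the libraries are scaled. Of 15 ratios, 12 overlapped between the labels, and the 3 that did not reached the smallest p that an exact permutation test of 3 against 3 libraries can give, two-sided p = 0.1 before any adjustment over the 15. The log2 ratio of *Napb* to *Napa* was -1.27 ± 0.27 (SD, n = 3) in WT and -0.61 ± 0.28 in cKO. The log2 ratio of *Unc13b* to *Unc13a* was 0.88 ± 0.13 in WT and 0.57 ± 0.05 in cKO. The log2 ratio of *Rims1* to *Rims2* was -1.95 ± 0.92 in WT and -3.35 ± 0.70 in cKO, but WT replicate 1 at -2.81 and cKO replicate 1 at -2.84 were all but equal, and with a pseudocount of 0.1 the labels overlapped (p = 0.2 by the exact permutation test). These 3 ratios, free of overlap, differ in 1 direction under any pairing of the libraries, so pairing adds nothing for them. Of the 12 that overlapped, 4 differed in 1 direction in all 3 same-numbered pairs: Syn2/Syn1 (-1.68, -1.42 and -0.16), Syn3/Syn1 (-0.65, -0.29 and -0.36), Cplx3/Cplx1 (-0.05, -0.62 and -0.07) and Slc17a7/Slc17a6 (1.18, 0.05 and 0.19). For each of these 4, the exact sign-flip permutation test over the 3 pairs gave the smallest two-sided p it can give, 0.25. With signs set at random, a ratio does so with that same probability.

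**Figure D3:**
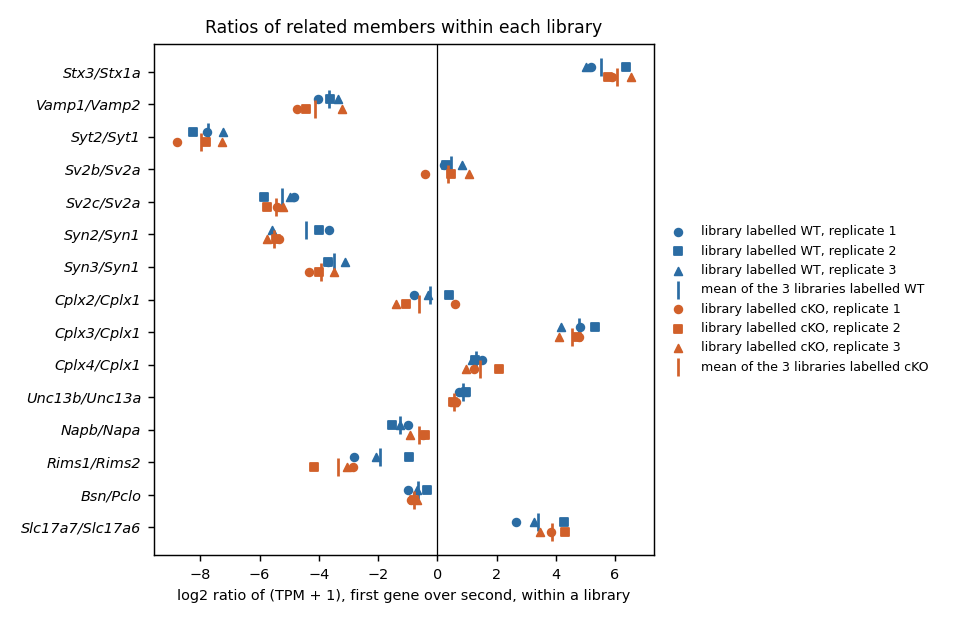
Log2 ratio of (TPM + 1) for 15 pairs of related genes in each library (points) with the mean of each label (bars, n = 3 libraries). Only Napb/Napa, Unc13b/Unc13a and Rims1/Rims2 are free of overlap, while Stx3 lies far above Stx1a and Cplx3 far above Cplx1 in all 6 libraries.

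A wider list of 97 presynaptic genes outside the group had a smaller median in the same direction. Of these, 96 were in the table and 94 were tested. Their median log2 fold change was 0.54, with 73 of 94 above 0, against 61.1% of all genes. At an unadjusted p of 0.05, 34 were higher, against 11.9% of all genes, and 2 were lower (*Syngr2* and *Ppfia4*, named after their values were seen), against 6.45%. Every cKO library lay above the WT libraries in 36, against 18.7%, and below in 1 (*Ppfia4*), against 7.18%. No adjusted p passed 0.05 by limma, as for the members. The 10 genes with the lowest p that did not overlap were all higher in cKO: *Dnm3*, *Scamp5*, *Ppfia2*, *Erc2*, *Rab3c*, *Cacna1f*, *Svop*, *Sh3gl2*, *Syt3* and *Atp6v1a*. *Dnm3*, another dynamin, held 52.0, 47.1 and 52.3 TPM in WT and 138, 135 and 113 TPM in cKO (log2 fold change 1.33, SE 0.19), in contrast to the scatter of *Dnm1*. *Cacna1f*, the calcium channel of photoreceptor ribbon synapses, held 33.7, 48.7 and 45.6 TPM in WT and 77.9, 83.4 and 104 TPM in cKO (log2 fold change 1.04, SE 0.24).

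The same libraries differed in their marker genes, and in bulk samples fewer cells of a type cannot be told apart from less RNA per cell. A list of 20 neuronal genes that are not presynaptic had a median log2 fold change of 0.99, with 12 higher at an unadjusted p of 0.05. The summed TPM of the 36 members over that of these neuronal genes was 3.04 to 3.41 in WT and 2.82 to 3.02 in cKO. All 12 rod markers were higher at an unadjusted p of 0.05 (median 1.40), and their sum ran from 13910 to 19321 TPM in WT and from 28983 to 52995 TPM in cKO. Rod and member sums ranked the cKO libraries differently, with rods lowest in cKO replicate 1, where the members were highest. At an unadjusted p of 0.05, where 11.9% of all genes were higher, 7 of 9 cone markers were higher (median 0.97), 2 of 13 bipolar markers (median 0.53, with 13 above 0) and 3 of 11 amacrine markers (median 0.73, with 10 above 0). The sums of the neuronal genes (4744, 4197 and 3317 TPM), of the bipolar markers (3006, 2998 and 1722 TPM) and of the amacrine markers (2490, 1949 and 1335 TPM) ranked the cKO libraries as the members did.

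Lymphocyte and myeloid markers went the other way. Of 10 T cell markers 8 were lower at an unadjusted p of 0.05, against 6.45% of all genes. Their sum was 695 to 1924 TPM in WT and 256 to 503 TPM in cKO. Myeloid markers summed to 2273 to 3617 TPM in WT and 961 to 1331 TPM in cKO. The 14 RGC markers summed to 152 to 210 TPM in WT and 231 to 256 TPM in cKO. The 11 tested had a median log2 fold change of 0.11, with 3 higher at an unadjusted p of 0.05, against 11.9% of all genes. Named after their values were seen, these 3 were *Thy1*, *Ebf3* (log2 fold change 1.36) and *Stmn2* (0.97). Of the 11, 4 lay below 0, among them, also named after their values were seen, *Sncg* (-0.83) and *Rbpms2* (-0.51). *Rbpms*, the defining marker, lay at 1.82 to 6.43 TPM over all libraries. Of the others, named after their values were seen, *Pou4f2* and *Pou4f3* stayed under 1 TPM everywhere, with the first listed at 0 in 5 libraries, while *Isl1*, which bipolar cells also express, lay at 51.9 to 104 TPM and *Nefl* at 5.47 to 20.6 TPM. *Thy1*, the sorted antigen and a member of both the RGC and the T cell list, held 51.9 to 88.5 TPM in WT and 94.4 to 129 TPM in cKO. The part of these shifts in the members' differences was not tested.

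**Figure D4:**
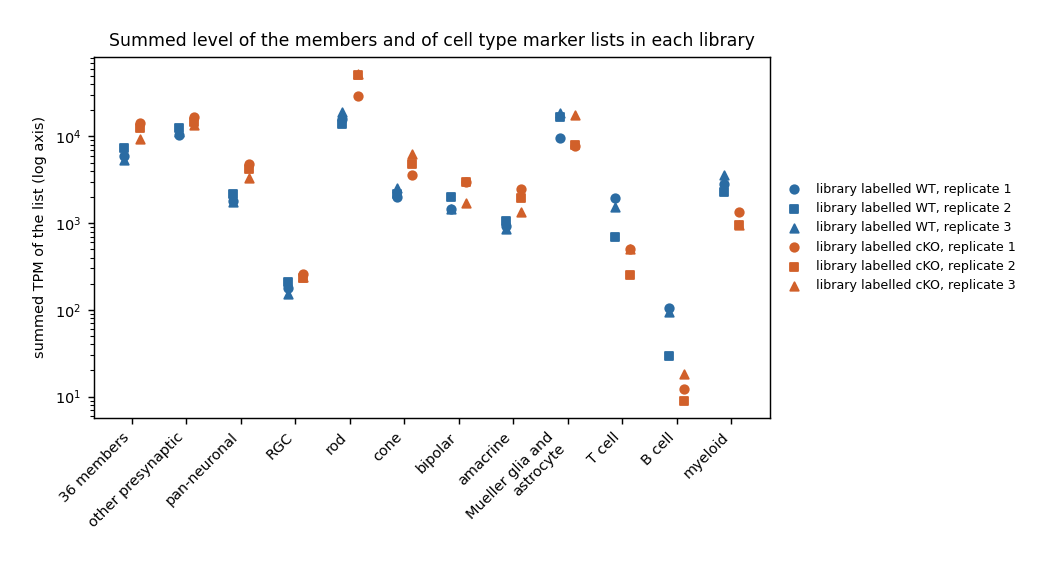
Summed TPM (log axis) of the 36 members, of other presynaptic and neuronal genes and of cell type marker lists in each RNA-seq library. Member, other presynaptic, neuronal, RGC, rod, cone and amacrine sums are higher in all 3 cKO libraries than in the WT libraries. T cell, B cell and myeloid sums are lower, and bipolar and Mueller glia and astrocyte sums overlap.

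Chromatin at these genes gave values in the opposite direction to their RNA. The deposited ATAC-seq regions give 1 value per label, the log2 of mean normalized reads, so differences between labels are a description and were not tested here. All 18 regions at the members' ends were lower in cKO, and 15 were lower by more than 1 on the log2 scale. That share is near the background, since 92% of the 7169 regions at ends of protein-coding genes passed the same limit, as did 59.6% of all regions. The median difference was -2.64 at the members, -2.56 at protein-coding gene ends and -1.57 over all regions.

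The widest difference was at *Napa*. Its region, chr7:16098069-16098996 on GRCm38, spans the start of the gene and the promoter printed above. It went from 7.25 in WT, the highest of the 18, to 3.04 in cKO, a difference of -4.21. *Snap25* (chr2:136713232-136713712) went from 4.16 to 0.59, a difference of -3.57 that left the lowest cKO value of the 18. *Pclo* (chr5:14514746-14515456) differed by -3.19, *Rab3a* (chr8:70754435-70755274) by -2.95 and *Syt1* (chr10:109010708-109011900) by -2.82, and the last 2 contain all of the windows printed for them. *Vamp2* differed by -2.76, *Napb* by -2.80 and *Vamp1* by -2.62. *Syn1* (chrX:20920413-20921085), with the RE1 match in its promoter, differed by -2.66, and *Unc13a*, with the other RE1 match, had no region.

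The narrowest differences were at *Cplx3* (chr9:57605674-57607138), from 4.52 to 4.04, a difference of -0.48, and at *Syn2*, a difference of -0.69. *Rims1* had a pair of regions that differed by -1.21 and -0.93, *Syn3* differed by -1.17, *Amph* by -1.80 and *Rims2* by -1.89. Some regions are shared with a neighbouring gene, named here for its position alone: the *Cplx3* region also lies at an end of *Lman1l* and the *Unc13b* region (a difference of -3.31) at an end of *Fam214b*, while the *Synj1* region (-2.56) lies at the far end of that gene beside *Cfap298*. Regions over the promoter windows of *Unc13b* and *Synj1*, which lie beyond 1000 bp of the gene ends used here, differed by -1.67 and -3.99.

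Peaks, called in each ATAC-seq library on its own, gave the same direction. A peak lay at an end of 24 and 17 of the 36 members in WT replicates 1 and 2, and of 7 and 5 in cKO replicates 1 and 2. Over all protein-coding genes the shares were 49.3% and 42.8% in WT and 12.4% and 12.8% in cKO, and among those tested by RNA-seq they were 69.5% and 62.2% in WT and 14.3% in each cKO library. The WT counts of the members lay between these background shares, and the cKO counts lay near them. With 2 libraries per label no exact test can reach p = 0.05.

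By gene, 13 members had a peak in both WT libraries and in no cKO library: *Snap25*, *Vamp1*, *Vamp2*, *Syt1*, *Syn1*, *Cplx3*, *Napa*, *Napb*, *Rab3a*, *Rims2*, *Pclo*, *Amph* and *Synj1*. The share of all genes with this pattern is not given here, and over all genes too fewer had a peak in cKO than in WT. At the far end of *Synj1* a peak in cKO replicate 2 overlapped the region but lay beyond 1000 bp of the gene. Another 9 had no peak in any library, and these were *Stx3*, *Syt2*, *Syt11*, *Sv2a*, *Sv2c*, *Cplx1*, *Cplx2*, *Cplx4* and *Bsn*. *Sv2b* and *Rph3a* had a peak in 1 cKO library alone. *Syt4*, *Syp*, *Unc13a* and *Doc2b* had one in 1 WT library alone, and *Stx1a*, *Nsf* and *Slc17a7* in 1 library of each label. *Syn3*, *Unc13b* and *Rims1* had peaks in both WT libraries and 1 cKO library, and *Syn2* and *Dnm1* in 1 WT library and both cKO libraries.

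**Figure D5:**
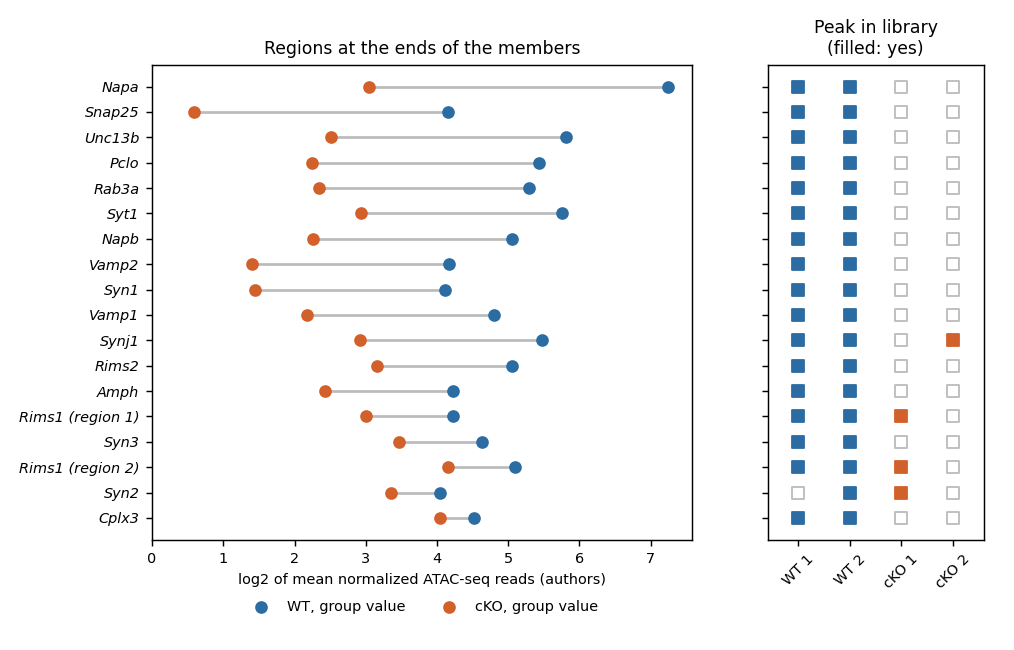
Left, log2 of mean normalized ATAC-seq reads for the 18 regions at ends of the members, with 1 group value for WT (blue) and 1 for cKO (orange). Right, whether a peak was called over the region in each of the 4 libraries, with a peak in at least 1 WT library at all 18 regions and in a cKO library at 4.

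RNA differences were set beside the presence of a region, with no test of the difference. Among the 17 with a region, 15 had an RNA fold change above 0 and 10 had every cKO library above the WT libraries, with a median log2 fold change of 0.85. Among the 19 without a region, 18 were above 0 and 12 did not overlap, with a median of 1.02. Of the 15 members with a region lower by more than 1, 14 had an RNA fold change above 0. Over all genes tested, 61.1% had a fold change above 0 and 18.7% had every cKO library above the WT libraries. At the ends of protein-coding genes 92% of regions were lower by more than 1, so both directions were common beyond the members. *Rab3a*, *Syt1*, *Napb* and *Snap25* thus paired lower ATAC-seq values in cKO with higher TPM values, whereas *Napa* paired the widest ATAC-seq difference with overlapping TPM. The share of members with a region, 17 of 36, stood between the 37.1% of all protein-coding genes and the 55.2% of those tested by RNA-seq. The RNA-seq and ATAC-seq libraries were separate samples with no label that links one to another.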

How the data were processed

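RNA-seq and ATAC-seq were run on retinal cells sorted for Thy1.2 after ONC, and groups were taken from the sample labels. The authors trimmed reads, quantified transcripts with Salmon 1.0.0 on the GENCODE mouse annotation, moved to gene level with tximport, and deposited TPM for each library. They aligned ATAC-seq reads with Bowtie2 2.3.5.1 on GRCm38, deposited peak positions for each library with no heights (the processing notes list MACS2 2.2.5, without its role), and deposited, from DiffBind, the log2 of mean normalized reads per label for each region. Tool versions are from the submitters' processing notes. The deposited files also hold the authors' own fold changes, p-values and FDR, for RNA-seq (DESeq2 1.26.0) and for ATAC-seq, which were not used. Sequencing depth is not given in the files used, and values are therefore printed without counting intervals.

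Genes below 1 TPM in more than 3 of the libraries were dropped. On log2(TPM + 1), using R 4.3.3, limma 3.58.1 fitted the label as its single term, with moderated variances that followed mean expression, and p-values were adjusted over all 17555 genes by the Benjamini-Hochberg method at a threshold of 0.05. With the added 1, differences of scarce genes come out too small. The study's methods tested counts, but the values held are TPM, hence limma. Ratios of related genes were compared by two-sided exact permutation tests. Regions and peaks within 1000 bp of either end of a gene were taken, with gene positions from RefSeq on GRCm38.p6. Promoter windows came from RefSeq on the same assembly, and positions are counted from 1. A motif was searched on both strands. Scripts were tested on simulated data. Other steps used Python 3.11.15, pandas 2.3.3, numpy 2.4.6, scipy 1.17.1 and matplotlib 3.10.9.

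The members and lists were chosen with earlier results of these data known. Named genes are all 36 members, at most 10 other presynaptic genes with the lowest p and no overlap, the defining marker of each cell type, *Arid1a* and *Thy1*; *Slc17a6* was fixed with the ratios, and any other name is marked in the text as picked later or for its position. Marker lists not shown in the text had median log2 fold changes of -0.66 (Mueller glia and astrocytes, 10 genes), -2.17 (B cells, 4), -1.09 (endothelial cells and pericytes, 5), -0.95 (erythrocytes, 5), 1.06 (horizontal cells, 1) and 0.16 (housekeeping, 12). Same-numbered WT and cKO libraries deviated together across genes (Pearson r of 0.334, 0.101 and 0.425), though WT replicate 1 and cKO replicate 2 also did (r of 0.193), and the replicate number was also run as a block. The other alternatives were a pseudocount of 0.1, no filter or a filter on mean TPM (5), median-of-ratios scaling, limma without the trend, each library left out, distances of 500 and 3000 bp, gene starts alone and a difference of 2.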

Additional observations from a re-analysis of the deposited data

How the results depend on the processing

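No member passed an adjusted p of 0.05 by limma under any alternative run. The number of members higher at an unadjusted p of 0.05 was 19 to 23 under the other pseudocount, filter, scaling and trend settings. Of these settings only the scaling has a share over all genes here, 7.57%. On leaving out single libraries the number ran from 14 (without cKO replicate 1) to 24 (without WT replicate 2). Over all genes the shares without single libraries ran from 5.76% to 13.4%. With the replicate block, 22 members were higher at an unadjusted p of 0.05, against 13.4% of all genes, and 0 passed an adjusted p of 0.05 (lowest adjusted p 0.070); it changed no call. Differences of ratios within same-numbered libraries were added after seeing the data; their means equal the unpaired differences by construction, and no exact p was below 0.25.

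The sign of the log2 fold change reversed for 4 members. *Syt11* was -0.10 after scaling by the median of ratios and ran from -0.28 to 0.36 when each library was left out. The same ranges were -0.80 to 0.34 for *Syn2*, -0.35 to 0.24 for *Rims1* and -0.83 to 0.95 for *Dnm1*. Among ratios of related genes, *Syt2*/*Syt1* was 0.63 and *Sv2c*/*Sv2a* was 0.42 with a pseudocount of 0.1, and leaving out single libraries reversed *Syt2*/*Syt1* (-0.55 to 0.21), *Sv2b*/*Sv2a* (-0.42 to 0.31), *Cplx2*/*Cplx1* (-0.98 to 0.0039), *Cplx3*/*Cplx1* (-0.54 to 0.029), *Cplx4*/*Cplx1* (-0.23 to 0.34) and *Bsn*/*Pclo* (-0.28 to 0.048). The cause was not tested.

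Within 3000 bp, 24 regions of the members were lower in cKO by more than 1, and 14 and 13 members had a peak in cKO replicates 1 and 2. Within 500 bp, 1 member had a peak in cKO replicate 2, and with gene starts alone 3 members had one in cKO replicate 1. The shares over all genes given above are for 1000 bp of either end, so these counts have no background beside them. The windows of 500 and 3000 bp take in less or more of the genome than 1000 bp. *Cplx4*, *Doc2b*, *Rims2*, *Snap25*, *Syn3*, *Syt4* and *Vamp2* had no strand given and were left out of the run with gene starts alone. For ATAC-seq regions: No paired analysis was possible because each has 1 value per label. The depth behind TPM values is unknown, 3 libraries per label limit the precision, and the ATAC-seq differences come without values per library.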
